A study of Mus musculus with 12 samples.

Results

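The genes described are the collagens and the enzymes that process them, in mouse kidney tubular epithelial cells. They were chosen by name from a table of read counts, as every row whose mouse symbol has the form of a collagen chain (Col, a number, a, a number) or is one of 16 processing genes: Lox, Loxl1 to Loxl4, Plod1 to Plod3, P4ha1 to P4ha3, Serpinh1, Pcolce, Bmp1, Crtap and P3h1. The rule found 60 genes among the 55487 rows, 44 collagen chains and 16 processing genes. A filter on low counts kept 28 of the 60, 14 chains and 14 processing genes, and these 28 are the members that could be tested.

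A collagen is made of 3 chains wound into a triple helix. Inside the cell, proline and lysine residues of the chains are hydroxylated by the P4ha, P3h and Plod enzymes, and the chaperone Serpinh1 (Hsp47) holds the folded helix on its way out. Outside, Bmp1, helped by Pcolce, removes the C-terminal propeptides of fibrillar procollagens. Enzymes of the lysyl oxidase family (Lox, Loxl1 to Loxl4) start the cross-links between molecules. In the kidney, collagen IV and collagen XVIII belong to the basement membrane under the tubule, while collagens I, III and V build the fibrils that accumulate in the interstitium during fibrosis. Transforming growth factor beta (TGFβ) is a cytokine known as a driver of that accumulation.

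The cells are a conditionally immortalised line, im_TEC, with an SV40 large T antigen. Cells of this kind were kept at 33 °C in the presence of interferon γ (10 ng/mL) and, before an experiment, at 37 °C for 7 days in its absence, in a medium with serum, insulin, hydrocortisone and 20 ng/mL epidermal growth factor. All had been transduced and selected on puromycin. The 4 groups of 3 libraries are mock-transduced cells, mock-transduced cells given TGFβ at 10 ng/mL for 48 h, cells labelled Nnmt-OE (a construct to express nicotinamide N-methyltransferase, spelled Nmt-OE in 1 label field), and cells labelled Nnmt-OE with the same TGFβ. Treated means given TGFβ. The labels do not say whether replicates are separate cultures, so the spread that p-values are measured against may be technical. The library codes run in blocks by group, so the order of handling and the group cannot be told apart.

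Libraries held 4733846 to 7247413 reads in genes, and values are CPM, read counts brought to a common library size after scaling for composition. Nnmt itself stood at 20.3 ± 3.84 CPM (SD, n = 3) in mock cells and 25.3 ± 2.88 in cells labelled Nnmt-OE, 0.32 ± 0.22 apart on the log2 scale (SE, adjusted p = 0.897 by edgeR's quasi-likelihood test with Benjamini-Hochberg adjustment). With TGFβ, Nnmt stood at 30.3 ± 2.77 CPM in mock cells and 27.6 ± 5.8 in cells labelled Nnmt-OE, the opposite order. A 3′ tag library may not count RNA from a construct, so the label is neither borne out nor contradicted by this gene. Of 10 tubular epithelial markers, 5 passed the filter, Pax8 at 243 CPM on average, whereas Epcam and Cdh1 had no read in any library and Krt18 averaged 0.542 CPM. Summed over the list, these markers ran from 760 to 866 CPM in mock, 718 to 798 in treated mock, 751 to 809 in Nnmt-OE and 729 to 836 in treated Nnmt-OE. The 10 fibroblast and pericyte markers summed to 42.2 to 56.1, 40.8 to 53.8, 50.2 to 64.9 and 51.6 to 66.7 CPM in the same order, with Lum, Prrx1 and Tcf21 at 0. Nearly all of that sum was Twist1 and Twist2, at 31.9 and 22.1 CPM on average, the 2 of the list that passed the filter. Pdgfra had 4 reads in all and Pdgfrb 25. The 6 endothelial markers summed to at most 7.09 CPM in a library, with 4 of them at 0. The 6 leukocyte markers summed to 55.2 to 96.3 CPM, with Adgre1 and Cd3e at 0. Nearly all of it was Csf1r and Cd68, at 71.7 and 7.64 CPM on average, while Ptprc had 2 reads in all and Lyz2 1. TGFβ acted on the cells: 5 of 7 reference genes tested rose (2.48% of all genes did), among them Acta2 (2.18 ± 0.13, log2, adjusted p = 3.12e-16) and Tagln (1.44 ± 0.09, adjusted p = 5.43e-16). In a principal component analysis 3 libraries stood apart (mock replicate 1, and replicate 3 of each TGFβ group), and counts of calls are also given without them.

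With TGFβ, averaged over mock and Nnmt-OE cells, the fibrillar chains Col1a1, Col1a2 and Col5a1 rose, the basement membrane chains Col18a1 and Col4a5 fell, and so did Pcolce, the helper of propeptide removal. Apart from collagen I, whose chains were low in reads, the steps were small, from 1.24-fold to 1.32-fold. That is 6 of 28 members called at an adjusted p of 0.05, 3 higher and 3 lower, against 5.08% of all 12897 genes tested (2.48% higher and 2.6% lower). The median log2 fold change of the 28 was 0.03, against 0 for all genes tested, and 17 of the 28 were above 0. The groups of 6 treated and 6 untreated libraries did not overlap for 4 members (Col1a1 and Col5a1 higher, Col18a1 and Pcolce lower), against 3.11% of all genes. In bulk RNA, fewer cells of a kind and less RNA per cell cannot be told apart. Without the 3 libraries that stand apart, 8 of 29 members tested were called, these 6 with P4ha2 and Serpinh1 added, against 706 of 13150 genes. No member was called when the change was tested against a minimum of 1.2-fold, a test that called 97 of all 12897 genes. DESeq2 called 7 members, 5 of them among these 6, and 803 of all genes.

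**Figure D1:**
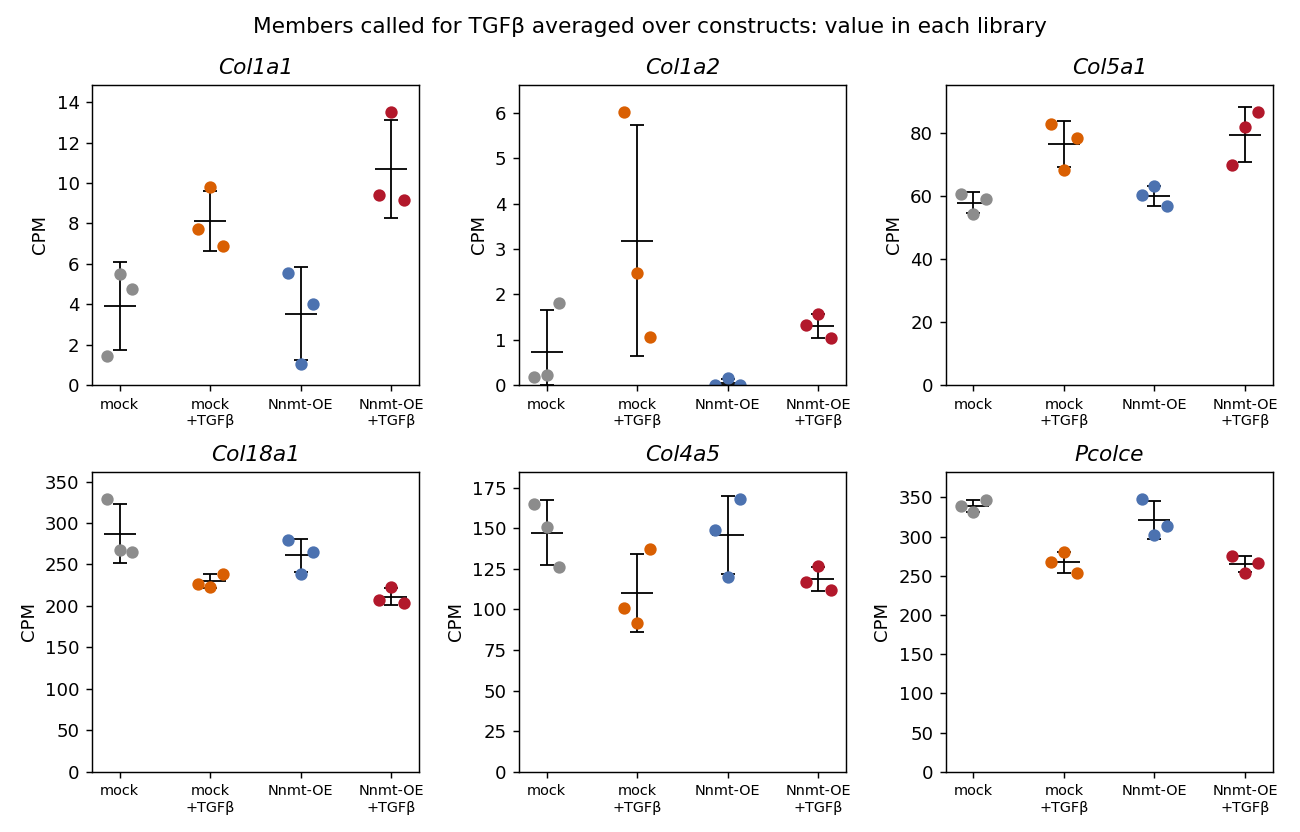
CPM of the 6 members called for TGFβ in each of the 12 libraries (points), with the group mean (long bar) and SD (capped bars, n = 3, cut at 0). The 6 treated libraries lie above the 6 untreated ones for Col1a1 and Col5a1 and below them for Col18a1 and Pcolce, while Col1a2 and Col4a5 overlap.

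The sequence in front of the gene start is shown for the 4 called members that have 1 start in the promoter table (RefSeq, GRCm38.p6), so that genes that rose and genes that fell can be read side by side. RefSeq entries matched 21 of the 28 members. Bmp1, Col12a1, Col1a1, Loxl1, Loxl2, Loxl3 and Plod2 had none. Each line is the 250 bases before the start, 5′ to 3′ on the gene's strand. Col1a2, which rose, is at chr6:4505368-4505617 on the plus strand. Col5a1, which rose, is at chr2:27886175-27886424 on the plus strand. Col4a5, which fell, is at chrX:141475169-141475418 on the plus strand. Pcolce, which fell, is at chr5:137611405-137611654 on the minus strand. Capitals mark 5 motifs searched on both strands: CAGAC (the core of the SMAD binding element), CCAAT (the CCAAT box), GGGCGG (the GC box), TATAAA (the TATA box) and TGANTCA (the AP-1 element).
Col1a2: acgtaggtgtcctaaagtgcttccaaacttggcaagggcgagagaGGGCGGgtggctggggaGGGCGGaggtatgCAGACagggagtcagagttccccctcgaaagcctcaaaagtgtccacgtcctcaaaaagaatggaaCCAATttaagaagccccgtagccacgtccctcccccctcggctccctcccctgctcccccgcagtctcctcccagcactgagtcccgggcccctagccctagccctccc
Col5a1: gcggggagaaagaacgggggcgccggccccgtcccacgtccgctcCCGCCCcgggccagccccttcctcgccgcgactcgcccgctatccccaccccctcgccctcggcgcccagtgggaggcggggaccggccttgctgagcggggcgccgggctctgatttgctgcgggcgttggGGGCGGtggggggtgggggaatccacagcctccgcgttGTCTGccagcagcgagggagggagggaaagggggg
Col4a5: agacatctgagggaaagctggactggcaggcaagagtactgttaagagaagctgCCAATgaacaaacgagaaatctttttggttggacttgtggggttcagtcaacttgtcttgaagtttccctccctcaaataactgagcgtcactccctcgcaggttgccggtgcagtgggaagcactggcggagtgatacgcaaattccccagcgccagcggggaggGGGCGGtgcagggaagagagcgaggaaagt
Pcolce: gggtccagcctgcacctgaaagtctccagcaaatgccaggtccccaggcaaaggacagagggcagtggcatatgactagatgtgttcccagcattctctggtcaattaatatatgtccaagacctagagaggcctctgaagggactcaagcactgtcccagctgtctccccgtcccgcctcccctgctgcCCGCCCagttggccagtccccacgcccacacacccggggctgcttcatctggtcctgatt
The letters CAGAC stand in both genes shown that rose and in neither shown that fell, but this split does not extend to all called members. Col18a1, which fell and has 2 starts, holds CAGAC before 1 of them, and Col1a1, which rose, has no entry. CAGAC stands in 42.2% of all 32851 promoters of this length in the table. CCAAT is held by 33.8% of them, GGGCGG by 32.7%, TATAAA by 12.4% and TGANTCA by 6.75%. Among the 21 members with an entry, counting a gene with several starts if any of them matched, 10 held CAGAC, 9 CCAAT, 16 GGGCGG, 2 TATAAA and 1 TGANTCA. The GC content of their promoters ran from 53.6 to 76.4%, against a median of 52.4% for the table. The part of GC content in the GC-box count was not tested. A match is a description of letters, not a bound site.

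Of the 11 fibrillar chains, 4 passed the filter. With TGFβ averaged over constructs 3 of the 4 rose, against 2.48% of all genes (median log2 fold change 0.87 for the 4). Col5a1 (ENSMUSG00000026837), a chain of collagen V, which sets the diameter of collagen I fibrils, was the fibrillar chain with the most reads. It stood at 60.6, 54.3 and 59 CPM in the mock libraries and 82.8, 68.4 and 78.5 with TGFβ. In Nnmt-OE cells it stood at 60.4, 63.1 and 56.9 CPM without and 69.9, 82 and 86.7 with TGFβ. Every treated library was above every untreated one. The averaged rise was 1.32-fold (log2 0.40 ± 0.10, 95% interval 0.21 to 0.60, adjusted p = 0.00693), and it was 0.40 in each construct alone (adjusted p = 0.156 in mock and 0.151 in Nnmt-OE). The call held in each of the 12 fits that left out 1 library, with an adjusted p of at most 0.0294.

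Col1a1 (ENSMUSG00000001506), the main chain of collagen I, was low for a gene of that name. In mock cells it stood at 1.42, 5.51 and 4.74 CPM without TGFβ and 7.71, 9.79 and 6.89 with it. In Nnmt-OE cells the values were 5.54, 1.03 and 4.02 CPM without and 9.42, 13.5 and 9.17 with TGFβ. The lowest treated library, at 6.89, lay above the highest untreated one, at 5.54, and the untreated libraries differed among themselves by more than the treated ones in proportion. The averaged rise was 2.54-fold (log2 1.34 ± 0.34, interval 0.65 to 2.04, adjusted p = 0.0124). It was 1.07 ± 0.48 in mock (adjusted p = 0.358) and 1.62 ± 0.49 in Nnmt-OE cells (0.0898). Leaving out treated Nnmt-OE replicate 2 ended the call (adjusted p = 0.0549).

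Col1a2 (ENSMUSG00000029661), the partner chain of collagen I, rested on 103 reads in all. Mock libraries held 0.178, 0.212 and 1.8 CPM without TGFβ and 6.02, 2.48 and 1.06 with it. Nnmt-OE libraries held 0, 0.147 and 0 CPM without and 1.32, 1.56 and 1.04 with TGFβ. In reads, the mock groups held 13 and 67 and the Nnmt-OE groups 1 and 22, and the highest untreated mock library lay above 4 of the 6 treated ones. The ratio of read rates with to without TGFβ was 4.23 in mock (95% counting interval 2.32 to 8.36) and 23.7 in Nnmt-OE cells (3.83 to 977), intervals that cover counting error only. The fitted averaged change was 3.10 ± 0.88 on the log2 scale (interval 1.31 to 4.88, adjusted p = 0.0284). Of the 12 fits without 1 library, 4 kept the call, those without replicate 3 of mock, of treated mock or of treated Nnmt-OE and without Nnmt-OE replicate 2. The others gave an adjusted p of 0.0537 to 0.17, the highest without treated mock replicate 1, and limma-voom gave 0.0815. The filter asks for about 10 reads in 3 libraries, and Col1a2 reached that in 1 untreated and 2 treated mock libraries.

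Col27a1, a fibrillar chain best known from cartilage, was tested but not called. It stood at 5.15, 4.45 and 4.41 CPM in mock and 3.08, 3.72 and 3.01 in treated mock. The Nnmt-OE values were 3.93, 3.08 and 3.66 CPM without and 5.62, 5.71 and 3.96 with TGFβ. The averaged difference was 0.01 ± 0.38 (log2, adjusted p = 0.996), and it was -0.51 ± 0.53 in mock and 0.52 ± 0.53 in Nnmt-OE cells. The other 7 fibrillar chains fell below the filter. Col3a1, the usual partner of collagen I in interstitial fibrils, and Col5a3 had no read in any library, which at 3 reads over 71112817 allows up to 0.0422 CPM. Col5a2 had 7 reads, all in 1 library of mock cells with TGFβ.

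Of the 12 basement membrane and network chains, 6 passed the filter. Of these 6, 2 fell, against 2.6% of all genes (median -0.33 for the 6). Col18a1 (ENSMUSG00000001435), whose C-terminal fragment is endostatin, was the collagen with the most reads in every group. It stood at 329, 268 and 265 CPM in mock and 227, 223 and 239 with TGFβ. The Nnmt-OE libraries gave 279, 239 and 265 CPM without and 207, 223 and 204 with TGFβ. The highest treated library, treated mock replicate 3 at 239, was just below the lowest untreated library, Nnmt-OE replicate 2, which also rounds to 239. The averaged fall was 1.24-fold (log2 -0.32 ± 0.07, interval -0.45 to -0.18, adjusted p = 0.00278), and it was -0.33 in mock (adjusted p = 0.0837) and -0.30 in Nnmt-OE cells (0.118). The adjusted p stayed at or under 0.0176 in the 12 fits without 1 library.

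Col4a5 (ENSMUSG00000031274), an X-linked chain of collagen IV that is mutated in Alport syndrome, was second among the collagens. It stood at 165, 151 and 126 CPM in mock and 101, 91.7 and 137 with TGFβ. In Nnmt-OE cells it stood at 149, 120 and 168 CPM without and 117, 127 and 112 with TGFβ. Treated mock replicate 3, at 137, and treated Nnmt-OE replicate 2, at 127, lay within the untreated range of 120 to 168. The averaged fall was 1.28-fold (log2 -0.35 ± 0.10, interval -0.55 to -0.16, adjusted p = 0.0219). Of the 12 fits without 1 library, 5 kept the call, those without mock replicate 2 or 3, treated mock replicate 3, Nnmt-OE replicate 2 or treated Nnmt-OE replicate 2. The other 7 gave an adjusted p of 0.0568 to 0.0962, the highest without Nnmt-OE replicate 3. Without the 3 libraries that stand apart the change was -0.38 (adjusted p = 0.00352).

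The 4 other network chains that were tested were not called by edgeR. Col7a1, the chain of anchoring fibrils, stood at 10.7, 7.42 and 7.84 CPM in mock and 7.57, 16.7 and 12.7 with TGFβ, and at 11.6, 7.04 and 12.3 in Nnmt-OE and 14, 10.7 and 13.6 with TGFβ. The ranges overlapped in both constructs, and the averaged difference was 0.41 ± 0.23 (log2, adjusted p = 0.395). Col4a4, a further chain of the kidney collagen IV network, stood at 1.6, 0.636 and 0.98 CPM in mock and 4.62, 2.9 and 4.6 with TGFβ. The Nnmt-OE libraries held 2.14, 2.79 and 3.29 CPM without and 3.64, 5.37 and 6.05 with TGFβ. Its libraries did not overlap within either construct, with an averaged difference of 1.37 ± 0.47 (log2, adjusted p = 0.0847 by edgeR, called by DESeq2). Col4a1 and Col4a2, the chains of the collagen IV found in nearly all basement membranes, were scarce here. Col4a1 stood at 1.42, 1.7 and 2.29 CPM in mock, 1.26, 0.138 and 0.884 in treated mock, 0.536, 4.55 and 0.183 in Nnmt-OE and 1.82, 0.519 and 0.417 in treated Nnmt-OE. Its averaged difference of -1.08 ± 0.75 (log2) turned to 0.05 without Nnmt-OE replicate 2, so 1 library decided its sign. Col4a2 stood at 3.2, 0.636 and 2.78 CPM in mock, 1.26, 0.69 and 1.24 in treated mock, 1.43, 2.49 and 2.93 in Nnmt-OE and 1.82, 1.73 and 0.209 in treated Nnmt-OE. Treated and untreated libraries overlapped, and the averaged difference was -0.94 ± 0.64 (log2, adjusted p = 0.498).

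Collagen IV genes lie in head to head pairs that start from opposite strands of a shared stretch. In GENCODE M21 the starts of Col4a3 and Col4a4 are 72 bases apart, those of Col4a1 and Col4a2 21, and those of Col4a5 and Col4a6 1309. Col4a3, below the filter, had 23 reads with TGFβ and 1 without (rate ratio 21.5, counting interval 3.5 to 887), 12 of them in treated Nnmt-OE replicate 3. Its adjusted p by edgeR, for TGFβ averaged over constructs, was 0.222 when no filter was used. Its partner Col4a4 had 162 and 67 reads (ratio 2.26, 1.69 to 3.06). Col4a6 had 18 and 9 reads (ratio 1.87, 0.799 to 4.73, an interval that includes no change), and its partner Col4a5 fell. Col8a1, a short-chain network collagen, had 65 reads with TGFβ and 11 without (ratio 5.53, 2.9 to 11.6), with an adjusted p of 0.198 when no filter was used. The intervals of these ratios cover counting error only and not the spread between libraries. None of Col4a3, Col4a4 and Col8a1 was called by edgeR. These low-count genes were singled out after their values were seen.

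**Figure D2:**
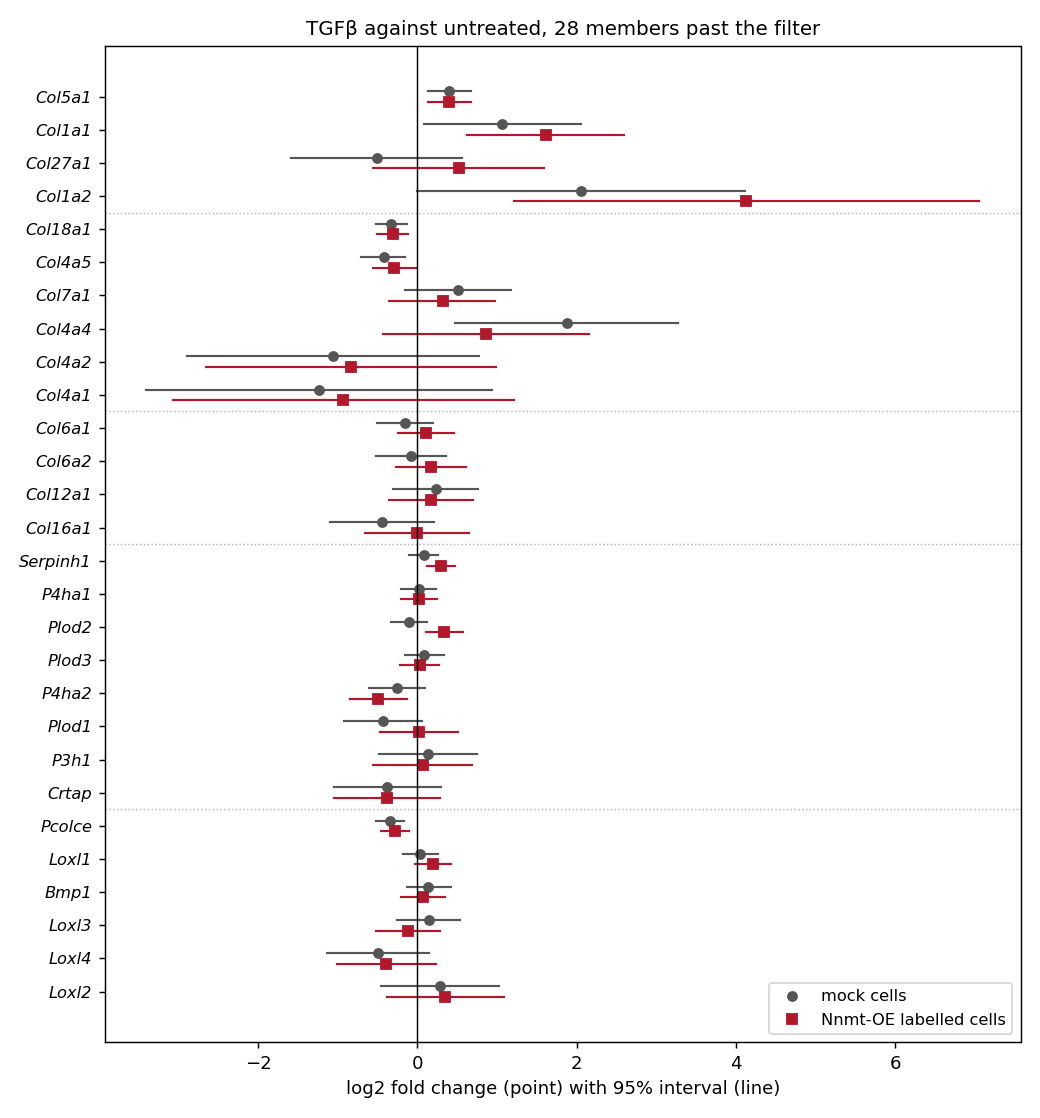
Log2 fold change of TGFβ against untreated (x axis) for the 28 members tested, by role from fibrillar chains (top) to extracellular enzymes (bottom), in mock cells (circles) and Nnmt-OE labelled cells (squares), with 95% intervals from the fit. Col5a1, Col1a1 and Col1a2 lie to the right of 0 and Col18a1, Col4a5 and Pcolce to the left in both constructs, and the widest intervals belong to Col1a2, Col4a1 and Col4a2.

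Of the 21 remaining chains (collagen VI, fibril-associated, transmembrane and others), 4 passed the filter and none of the 4 was called by edgeR, DESeq2 or limma-voom for TGFβ averaged over constructs, nor did any have an unadjusted p under 0.05 (16.6% of all genes did). Col6a1 and Col6a2 are chains of the beaded filaments of collagen VI. Col6a1 stood at 53.6, 57.5 and 52.9 CPM in mock, 42.6, 38.3 and 67.2 in treated mock, 57.2, 39.5 and 53.8 in Nnmt-OE and 49.4, 56.2 and 56.5 in treated Nnmt-OE. Col6a2 stood at 24, 32.2 and 21.1 CPM in mock, 27.9, 19 and 26 in treated mock, 25.9, 20.7 and 28.3 in Nnmt-OE and 31.1, 24.7 and 28.4 in treated Nnmt-OE. Col12a1, a collagen that coats fibrils, stood at 14.4, 18.9 and 13.4 CPM in mock, 19.9, 12 and 22.8 in treated mock, 15.9, 17.3 and 14.4 in Nnmt-OE and 16.7, 18.9 and 18.3 in treated Nnmt-OE. All 3 overlapped between treated and untreated libraries, with averaged differences of -0.02 ± 0.12, 0.05 ± 0.15 and 0.20 ± 0.19 (log2). Col16a1, a further fibril-associated collagen, differed by -0.22 ± 0.23. The interval of Col6a1 ran from -0.27 to 0.23. Col6a3, the third chain of collagen VI, had 62 reads in all, of which 19 were in 1 library.

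The collagen chains can be set against each other as shares of the collagen reads of a library. A 3′ tag library reads each transcript near its end, so the shares are not scaled by length and are shares of reads, not of protein. Collagen CPM summed to 631 ± 56.7 in mock, 558 ± 56.6 in treated mock, 601 ± 57.7 in Nnmt-OE and 568 ± 17 in treated Nnmt-OE (SD, n = 3). Fibrillar chains made up 11 ± 1.29% of this in mock and 16.7 ± 1.8% in treated mock, and 11.7 ± 1.29% in Nnmt-OE and 17.4 ± 1.13% in treated Nnmt-OE. Basement membrane and network chains made up 71 ± 2.44 and 64.7 ± 2% in mock without and with TGFβ, and 70.6 ± 0.742 and 62.2 ± 1.54% in Nnmt-OE cells. Most of the fibrillar share was Col5a1, from 9.22 ± 0.805 to 13.8 ± 1.19% in mock and from 10.1 ± 1.51 to 14 ± 1.35% in Nnmt-OE cells. These shares rest on the same reads as the tests above and are given as a description.

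**Figure D3:**
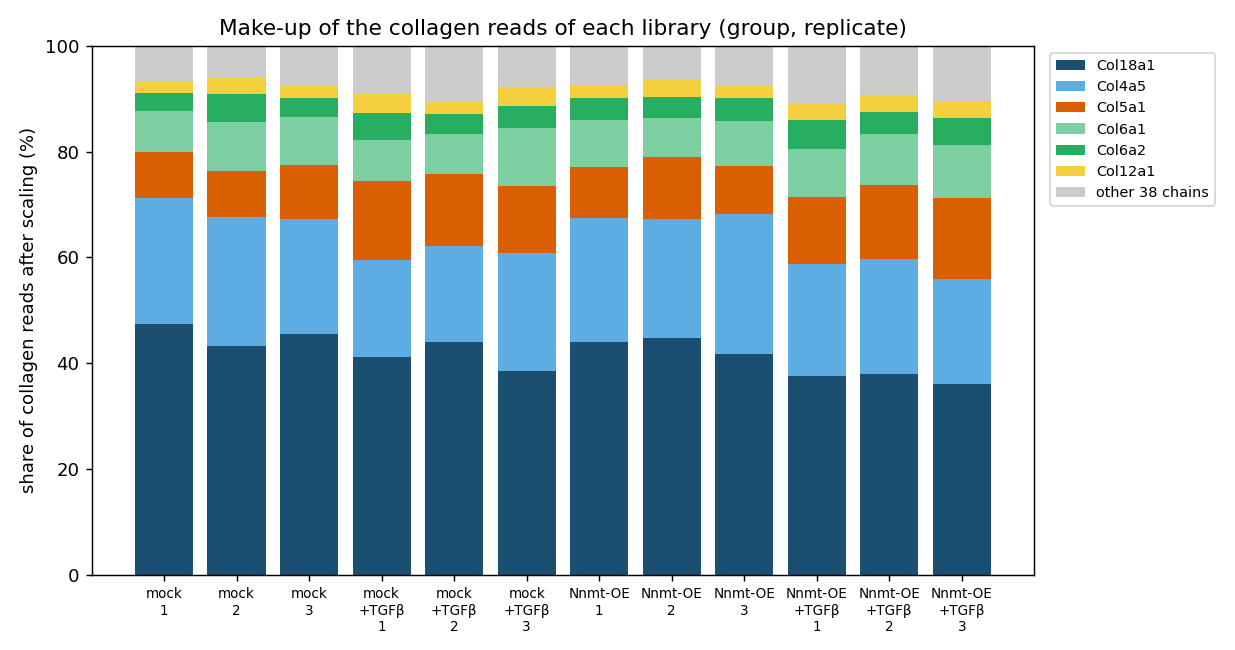
Share of all collagen CPM (y axis, %) taken by 6 chains and by the other 38 together, in each library (x axis, group and replicate). Col5a1 takes 8.75 to 11.8% in the untreated libraries and 12.7 to 15.4% in the treated ones, while Col18a1 remains the largest share in all 12.

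Of the 9 genes that act on collagen inside the cell, 8 passed the filter and none was called for TGFβ averaged over constructs by edgeR, with 2 at an unadjusted p under 0.05 (Serpinh1 and P4ha2, against 16.6% of all genes), whereas DESeq2 called Serpinh1 and limma-voom P4ha2. Serpinh1, the collagen chaperone, stood at 305, 275 and 329 CPM in mock and 330, 332 and 297 with TGFβ. In Nnmt-OE cells it stood at 279, 288 and 299 CPM without and 363, 365 and 339 with TGFβ. The libraries overlapped in mock and did not overlap in Nnmt-OE cells. The difference was 0.08 ± 0.09 in mock, 0.30 ± 0.09 in Nnmt-OE cells (adjusted p = 0.0835) and 0.19 ± 0.06 on average (0.0758). The difference between the constructs was not called (0.23 ± 0.13, adjusted p = 0.999).

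P4ha1 and P4ha2 are the catalytic subunits of prolyl 4-hydroxylase, whose product makes the helix stable at body temperature. P4ha1 stood at 146, 163 and 174 CPM in mock, 141, 170 and 179 in treated mock, 189, 152 and 189 in Nnmt-OE and 200, 167 and 171 in treated Nnmt-OE. Its averaged difference of 0.02 ± 0.08 (log2) has an interval from -0.14 to 0.18, short of the 0.40 of Col5a1. P4ha2 had group means of 53.5 ± 3.58 CPM in mock, 45.1 ± 14.8 in treated mock, 56.4 ± 6.08 in Nnmt-OE and 40.3 ± 3.57 in treated Nnmt-OE. Its difference was -0.37 ± 0.12 (adjusted p = 0.0758), and treated mock replicate 3, at 62 CPM, was the exception among treated mock libraries. Without the 3 libraries that stand apart it was among those called. P3h1 and Crtap, partners in a complex that hydroxylates single prolines, differed by 0.10 ± 0.22 and -0.38 ± 0.23.

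The Plod genes encode lysyl hydroxylases, of which Plod2 acts on the telopeptides that take part in cross-links. Plod2 stood at 141, 132 and 130 CPM in mock and 123, 137 and 115 with TGFβ. The Nnmt-OE libraries held 129, 110 and 118 CPM without and 136, 143 and 172 with TGFβ. The treated libraries were above the untreated ones in Nnmt-OE cells (0.34 ± 0.11, log2, adjusted p = 0.141) and overlapped them in mock (-0.10 ± 0.11, 0.806). The difference between these effects was 0.44 ± 0.16 (unadjusted p = 0.0083, adjusted p = 0.999), which is not a call. Plod3 had group means of 82.1 to 93.4 CPM and differed by 0.05 ± 0.09, and Plod1 had means of 14.7 to 19.8 and differed by -0.20 ± 0.17. P4ha3 had no read.

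Of the 7 genes that act outside the cell, 6 passed the filter and 1 of these fell, against 2.6% of all genes. Pcolce (ENSMUSG00000029718) stood at 339, 332 and 347 CPM in mock and 267, 280 and 254 with TGFβ. In Nnmt-OE cells it stood at 348, 302 and 313 CPM without and 275, 254 and 266 with TGFβ. All 6 treated libraries were below all 6 untreated ones. The averaged fall was 1.24-fold (log2 -0.31 ± 0.06, interval -0.44 to -0.18, adjusted p = 0.00116), and the adjusted p stayed at or under 0.0109 in the 12 fits without 1 library. In mock cells alone the fall was -0.34 ± 0.09 (adjusted p = 0.0336), and in Nnmt-OE cells -0.28 ± 0.09 (0.118). The call in mock alone was lost on leaving out mock replicate 2 or 3, any of the 3 mock libraries with TGFβ, or treated Nnmt-OE replicate 1 (adjusted p from 0.0523 to 0.125), and when only the mock groups were fitted (0.125).

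Bmp1, the propeptide-removing enzyme that Pcolce helps, had no such fall. It stood at 71.4, 79.1 and 79.9 CPM in mock, 93.6, 82.6 and 78.3 in treated mock, 63.6, 69.7 and 83.8 in Nnmt-OE and 85.6, 78.7 and 62.8 in treated Nnmt-OE. Its averaged difference was 0.11 ± 0.10 (log2, interval -0.09 to 0.30). Loxl1, a lysyl oxidase of elastic fibres, was the member of its family with the most reads. It stood at 258, 182 and 185 CPM in mock, 188, 228 and 227 in treated mock, 206, 213 and 183 in Nnmt-OE and 235, 226 and 230 in treated Nnmt-OE, and differed by 0.12 ± 0.08. The high value in mock replicate 1, 1 of the libraries that stand apart, lies above all treated libraries. Loxl3 stood at 28.2, 33.7 and 31.5 CPM in mock, 29.8, 35.4 and 38.2 in treated mock, 30.2, 27.6 and 34.8 in Nnmt-OE and 33.2, 29.9 and 21.5 in treated Nnmt-OE. Its difference was 0.01 ± 0.14, and it shares 238 of its last 1000 exonic bases in GENCODE M21 with Htra2 on the opposite strand, so its reads could not be told from that gene's if strand was ignored. Exonic bases shared with another gene were found for 9 of the 28 members, and Loxl3 was the 1 where they lay within that last stretch. Loxl4 and Loxl2 differed by -0.44 ± 0.22 and 0.32 ± 0.26. Lox, the family's first member, had 25 reads in all, 7 with TGFβ and 18 without.

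In each construct alone the same comparison called few members. In mock cells 1 of 28 was called, Pcolce, against 1.43% of all genes. In Nnmt-OE cells edgeR called 0 of 28 members, against 1.4% of all genes, with 9 at an unadjusted p under 0.05 (11.1% of all genes). DESeq2 called 3 (Col1a1, Pcolce and Serpinh1) and limma-voom 0, against 295 and 167 of all 12897 genes. Without the 3 libraries that stand apart the calls were Col4a5 in mock cells (Pcolce then at adjusted p = 0.0906) and Col1a1 and Serpinh1 in Nnmt-OE cells. All genes called there were 168 and 260 of 13150. Leaving out mock replicate 1 gave 3 calls in Nnmt-OE cells (Col18a1, Col1a1 and Serpinh1), against 305 of 13277 genes. For members with at least 10 CPM the 95% interval reached 0.35 to either side (median, log2) within 1 construct and 0.25 when averaged. For the 7 members under 10 CPM it reached 0.95 when averaged.

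The construct itself was asked about in 2 ways, as Nnmt-OE against mock and as a change in the response to TGFβ. Without TGFβ edgeR called 0 of 28 members (0.0388% of all genes), with 1 at an unadjusted p under 0.05 (5.84% of all genes). With TGFβ it called 0 (0.0233%), with 1 under 0.05 (4.46%). Averaged over treatments it called 0 (0.0698%), with 2 under 0.05 (6.23%), and for the interaction 0 (0% of all genes), with 1 under 0.05 (3.88%). DESeq2 and limma-voom also called 0 members in these 4 comparisons, and so did edgeR with the 3 libraries that stand apart left out. At most 26 of all genes were called in any of these fits, by DESeq2 averaged over treatments. The members under 0.05 were Col1a2, Plod2 and Loxl4. Col1a2 had 13 reads in mock and 1 in Nnmt-OE without TGFβ (rate ratio 14.1, counting interval 2.12 to 600), and 11 of the 13 were in mock replicate 3. Loxl4, a lysyl oxidase homologue, had means of 12 ± 4.93 CPM in mock, 8.48 ± 0.737 in treated mock, 16.7 ± 2.22 in Nnmt-OE and 12.7 ± 3.05 in treated Nnmt-OE, an averaged difference of 0.53 ± 0.22 (adjusted p = 0.699).

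The limits on a construct effect differ by member. For Pcolce, averaged over treatments, Nnmt-OE minus mock was -0.05 (log2, interval -0.17 to 0.08). For Col5a1 it was 0.05 (-0.14 to 0.25), for Col18a1 -0.13 (-0.27 to 0.01) and for Serpinh1 0.04 (-0.09 to 0.17). For Col1a1 it was 0.12 with an interval from -0.57 to 0.81, which allows a change in either direction. These intervals bound the differences and do not show that the constructs act alike.

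**Figure D4:**
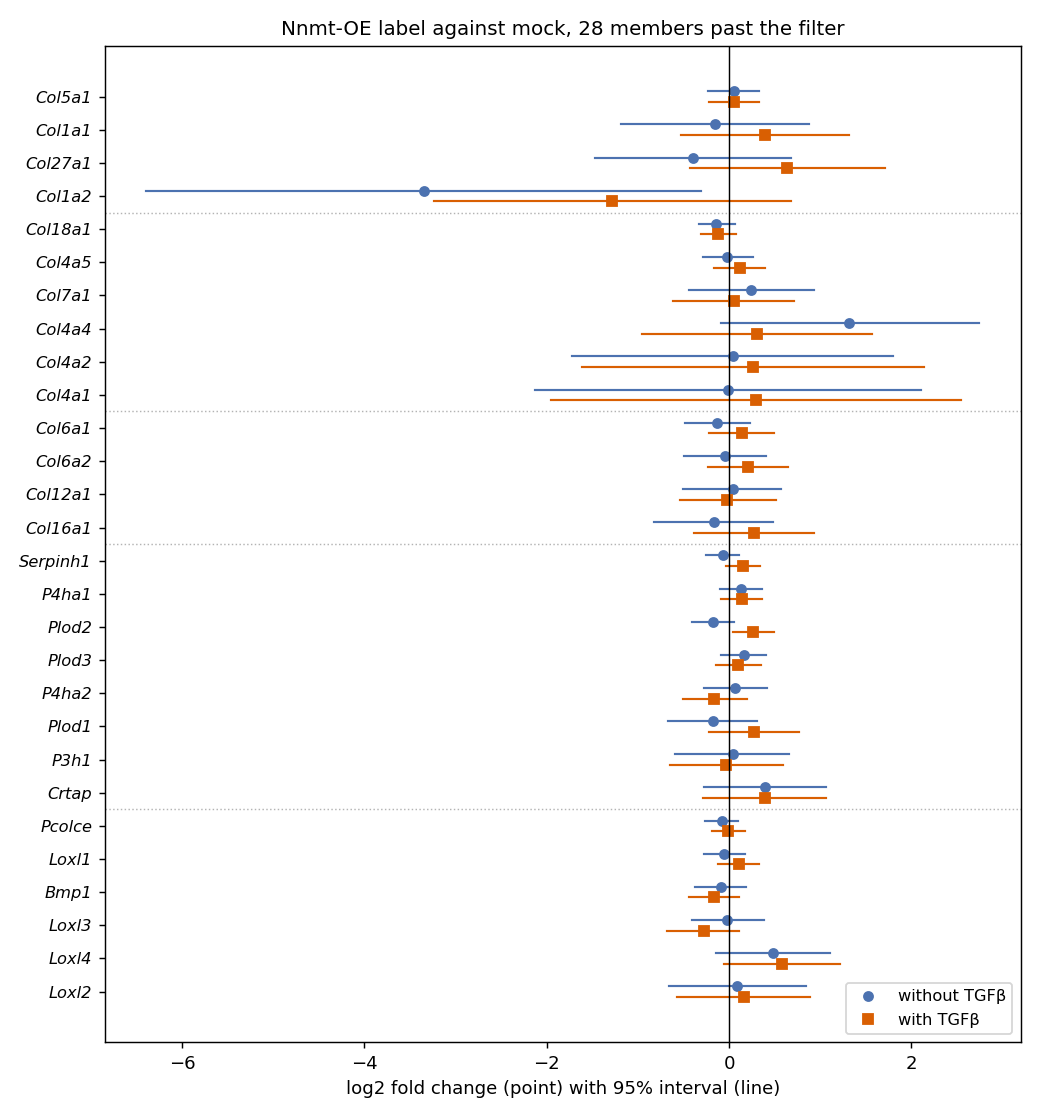
Log2 fold change of Nnmt-OE labelled against mock cells (x axis) for the 28 members tested, ordered as by role, without TGFβ (circles) and with TGFβ (squares), with 95% intervals from the fit. Points of the abundant genes lie close to 0 with short intervals, and the point farthest from 0 is that of Col1a2 without TGFβ, which rests on 13 and 1 reads.

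The other genes of the pathway were read from lists, again for TGFβ averaged over constructs. Of 18 other collagen biosynthesis genes tested, edgeR called 0, with 4 at an unadjusted p under 0.05 (16.6% of all genes), limma-voom 0 and DESeq2 1 (P3h2). The smallest adjusted p values were those of P3h2, a prolyl 3-hydroxylase of basement membrane collagen (-0.29 ± 0.09, log2, 0.0515), and Mia3, which loads procollagen into transport carriers (0.20 ± 0.08, 0.143). Of 12 collagen receptor and turnover genes, 3 rose and 1 fell, against 2.48% and 2.6% of all genes. The protease inhibitors Timp1 (0.54 ± 0.15, adjusted p = 0.0226) and Timp3 (0.35 ± 0.06, 6.71e-05) and the integrin chain Itgb1 (0.20 ± 0.06, 0.0263) were higher. Its partner Itga1, with which it forms a collagen receptor, was lower (-0.55 ± 0.08, 2.26e-06). Of 4 fibril organisers, Fn1 (fibronectin) rose (0.26 ± 0.06, 0.00693). DESeq2 called Fmod (fibromodulin) as well. For the construct averaged over treatments, edgeR, DESeq2 and limma-voom each called 0 genes of these 3 lists (0.0698% of all genes by edgeR). By edgeR 2 receptor and turnover genes had an unadjusted p under 0.05 and none in the other lists (6.23% of all genes).

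Of 7 proximal tubule markers 3 were tested for TGFβ averaged over constructs, and 1, Aqp1, was called (5.08% of all genes were). The 7 summed to 943 to 1190 CPM in mock and 720 to 799 with TGFβ, and to 1250 to 1260 in Nnmt-OE and 813 to 863 with TGFβ, with Hnf4a and Slc22a6 at 0. Aqp1, a water channel that makes up most of that sum, fell (-0.60 ± 0.06, log2, adjusted p = 8.98e-10), and so did Cdh16 among the tubular markers (-0.63 ± 0.09, 9.94e-06), while Krt8 rose (0.38 ± 0.09, 0.00766). The part of these changes in the collagen results was not tested.

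Many of the chains share a gene structure that the choice by name did not use. In GENCODE M21, 83.9% of the inner coding exons of the 11 fibrillar chains have a length that is a multiple of 9 bases, that is, of whole Gly-X-Y triplets of the helix, and 48.6% are 54 bases long. Over all 44 chains the shares are 63.9 and 24.5%, and over the 16 processing genes 10.7 and 1.12%. All protein-coding genes give 14.3 and 0.733%. The basement membrane and network chains, with 50.1 and 4.61%, share the multiple of 9 but seldom the 54-base exon. The 21 remaining chains give 56.5 and 17.5%, but some of them have a low share of multiples of 9, down to 22.2% for Col12a1.

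Below the filter were 32 members, 15 with no read in any library, 8 with 1 to 10 reads and 9 with more, up to 76 for Col8a1. They include 7 fibrillar chains, 6 basement membrane and network chains, 17 other chains and the enzymes Lox and P4ha3.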

How the data were processed

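Messenger RNA was measured by QuantSeq 3′ forward libraries made from 100 ng of RNA, per the labels' protocols. The authors deposited 1 table of raw counts of reads per gene with a column for each of 12 libraries. The submitters' processing notes name STAR and HTSeq, without versions, and the human build GRCh38, although the gene identifiers are mouse Ensembl ones. The mouse build, annotation release and strand setting are therefore unknown, and genome positions come from RefSeq or GENCODE M21 and not from the counting. Reads given to no gene (26.4 to 28.8% no feature, 0.6 to 0.68% ambiguous) were left out of library sizes. No molecular identifiers are stated, so intervals on counts cover counting error only. Symbols matched 55141 of 55487 identifiers (99.4%).

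All 12 libraries, grouped by title, entered 1 fit with a mean per group in edgeR 4.0.16 (R 4.3.3): filterByExpr (minimum count 10, minimum total 15; 12897 genes kept), TMM scaling (factors 0.981 to 1.011), and the robust quasi-likelihood F test, called at 0.05 after Benjamini-Hochberg adjustment over the whole set of genes kept. Unless another tool is named, every adjusted p is from this fit. The 7 contrasts were TGFβ and the construct, each within the groups and averaged, and their interaction. Averaged contrasts take the mean of both effects. The test was checked on simulated counts, drawn with the same setting of spread for every gene and without libraries that stand apart. That check does not extend to genes of wider spread. Alternatives were DESeq2 1.42.0, limma-voom (limma 3.58.1), RLE scaling, unscaled totals of each library, no filter, a filter of 1 CPM in 3 libraries and 50 reads, a block for the replicate number, a 1.2-fold threshold, each library left out and only the groups compared. A fit that leaves out 3 outlying libraries together was chosen after seeing the data.

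The members, lists and tests were chosen with earlier results of these data known. Values in every library are given for members called in any comparison and for the 3 others with the highest mean CPM of each role, and for Col4a1, chosen after its values were seen. The other lists are given by counts and by the genes called, or else the 2 with the smallest adjusted p. A few list genes are not reported here. Same-numbered libraries of different groups did not deviate together: over 18 pairs the correlation of deviations from group means ran from -0.21 to 0.15, so numbers were not taken to pair samples.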

Additional observations from a re-analysis of the deposited data

Results flagged for a closer look

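Col27a1, a fibrillar chain, had library values on opposite sides in the 2 constructs, although neither change was called (-0.51 ± 0.53 in mock, adjusted p = 0.794, and 0.52 ± 0.53 in Nnmt-OE, adjusted p = 0.804). In mock cells all 3 libraries with TGFβ (3.08, 3.72 and 3.01 CPM) were below all 3 without (5.15, 4.45 and 4.41), and in Nnmt-OE cells all 3 with TGFβ (5.62, 5.71 and 3.96) were above all 3 without (3.93, 3.08 and 3.66). Of all 12897 genes, 2109 were separated in this way, in either direction, in mock cells and 2269 in Nnmt-OE cells. Seen the other way, the same values put Nnmt-OE below mock without TGFβ and above it with TGFβ. The difference between the effects was 1.03 ± 0.75 on the log2 scale (SE) and was not called by edgeR's quasi-likelihood test (unadjusted p = 0.176, adjusted p = 0.999). The gene had 292 reads in all.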

How the results depend on the processing

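For TGFβ averaged over constructs, 6 members were called under RLE scaling, library totals, no filter and the filter of 1 CPM in 3 libraries, which tested 32 members. All genes called in these fits were 652, 644, 727 and 644. Limma-voom called 6 (656 genes), of which 5 were shared, and DESeq2 7 (803 genes), of which 5 were shared (Col1a2 has no adjusted p there). With the 1.2-fold threshold the count was 0 (97 genes), and the lowest and highest counts without 1 library were 4 and 8. For TGFβ in mock, DESeq2 gave 2 (306 genes), no filter 2 (264), the 1.2-fold threshold 0 (46) and only the groups compared 0 (92), with 0 to 1 without 1 library. For TGFβ in Nnmt-OE cells, DESeq2 gave 3 (295 genes), no filter 1 (231) and only the groups compared 3 (351). Leaving out the 3 libraries that stand apart gave 2 (260), with 0 to 3 without 1 library. The 4 construct and interaction counts were 0 in every setting run.

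With a replicate block the averaged TGFβ count was 5 (Col1a2 at adjusted p = 0.0539), and the counts in mock and in Nnmt-OE cells were 1 and 0. All genes called in that fit were 626, 170 and 168 in the same order. Of 12 libraries, 5 correlated best with their own number. Of 585 values of single members, 521 kept side and sign, 8 gained and 24 lost the call, and 32 changed sign, none of them of a called member. Col27a1 was 0 with library totals and with the replicate block, and without the 3 libraries that stand apart Col6a2 was 0, P4ha1 -0.03 and P3h1 -0.10. Without 1 library, values ran from -0.04 to 0.08 for Col27a1, -0.05 to 0.09 for Loxl3, -0.03 to 0.07 for P4ha1, -0.04 to 0.23 for P3h1, -0.02 to 0.14 for Col6a2, -0.16 to 0.06 for Col6a1 and -1.56 to 0.05 for Col4a1. Apart from the settings with fewer samples or other genes tested, the cause was not tested. Intervals were widest for the members under 10 CPM (median 0.95 to either side, against 0.25 for the others, averaged TGFβ effect).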

Other observations

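Of the 32 members below the filter, 9 had more than 10 reads. Lox had 9 of its 25 reads in mock replicate 2 and none in the other 2 mock libraries. Col11a2, a chain of collagen XI, had 13, 10 and 7 reads in the Nnmt-OE libraries and 1, 0 and 5 in those with TGFβ. In mock cells it had 3, 1 and 6 reads without TGFβ and 2, 3 and 10 with it. Col15a1, a relative of Col18a1, had 7 reads in Nnmt-OE, all in replicate 3, and 5 in treated Nnmt-OE, all in replicate 1. It had 0 in both mock groups. Col6a3 had 19 of its 62 reads in Nnmt-OE with TGFβ replicate 2. These genes were singled out after their values were seen, and no claim of a change rests on them.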
